A study of Mus musculus with 6 samples.

Results

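The collagens that mark cartilage are the products of *Col2a1* (type II), *Col9a1*, *Col9a2* and *Col9a3* (type IX), *Col10a1* (type X), *Col11a1* and *Col11a2* (type XI) and *Col27a1* (type XXVII). These 8 genes were taken by name from a table of read counts for 55487 genes in knee joint cartilage of mice at postnatal day 6 (P6). No difference between WT and *Hbb*-cKO mice passed the test in any of the 8 genes, and in 7 of them the spread between the *Hbb*-cKO libraries was wider than that between the WT libraries.

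The study compared 3 WT libraries with 3 *Hbb*-cKO libraries of polyadenylated RNA, in which the genes of the haemoglobin β-subunit were deleted conditionally in chondrocytes. The labels give the genotypes as wild type and conditional knockout, with the same age and tissue for all 6 libraries. Per the study's methods, exons of *Hbb-bs* and *Hbb-bt* were floxed on a C57BL/6J background, and *Hbb*-cKO mice are elsewhere in the study floxed mice with a tamoxifen-inducible Cre under the *Col2a1* promoter, the promoter of one of the 8 genes. The labels do not name the Cre line of the sequenced mice, the floxed or Cre status of the WT mice, tamoxifen treatment or the number of mice in a library. P values therefore set the difference between genotypes against the spread between libraries. Whether each library came from a separate animal is not stated, and 3 libraries held RNA of both sexes (counts below).

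Collagens are made of 3 chains that wind into a triple helix, which requires glycine at a fixed interval, written Gly-X-Y. Type II collagen forms the bulk of the cartilage fibril, and type XI lies within it and limits its width. The type XI trimer combines the products of *Col11a1* and *Col11a2* with a chain encoded by *Col2a1*. Type IX is a heterotrimer of the products of its 3 genes and sits on the fibril surface, where its short non-collagenous interruptions act as hinges. Type XXVII is a fibrillar collagen of cartilage with a shorter helix. Type X forms a network rather than fibrils and is made by hypertrophic chondrocytes, the cells that prepare cartilage for replacement by bone. SOX9 with SOX5 and SOX6 drives the fibril genes, and RUNX2 drives *Col10a1*.

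The Gly-X-Y pattern can be read in the coding sequence. The first 10 triplets of the longest uninterrupted run are shown for 4 chains of different architecture, from GENCODE M21 transcripts on GRCm38, sense strand, 5′ to 3′. Capitals mark the glycine codons of the Gly position, which recur every 9 bases. The stretches are coding bases of spliced exons, counted from the transcript start: bases 1940 to 2029 for *Col11a1*, 2408 to 2497 for *Col27a1*, 1497 to 1586 for *Col9a1* and 982 to 1071 for *Col10a1*.
Col11a1: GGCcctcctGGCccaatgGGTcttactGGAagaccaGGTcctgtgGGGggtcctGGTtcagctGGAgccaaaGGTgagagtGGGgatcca
Col27a1: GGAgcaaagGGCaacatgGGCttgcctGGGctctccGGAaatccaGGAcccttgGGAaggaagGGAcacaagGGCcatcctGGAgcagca
Col9a1: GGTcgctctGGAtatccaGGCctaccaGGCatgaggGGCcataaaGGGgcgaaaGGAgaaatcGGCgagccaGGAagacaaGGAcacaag
Col10a1: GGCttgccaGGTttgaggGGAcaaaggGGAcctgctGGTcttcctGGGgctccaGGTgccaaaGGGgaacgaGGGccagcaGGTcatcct

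Translated from the longest coding transcript, the 8 chains differed in how often this pattern broke. Counting runs of at least 10 triplets, *Col2a1* had a longest run of 339 triplets in a chain of 1487 residues, and *Col11a1* and *Col11a2* each had 338. The longest run of *Col27a1* was 217 triplets. In the type IX chains 5 runs were found, the longest of 113 triplets in all 3 genes, and *Col10a1* had 7 runs with a longest of 60. Proline at the Y position, where it can be hydroxylated to stabilise the helix, filled 30.4% of triplets in *Col11a2* and 45.3% in *Col10a1*, the lowest and highest shares of the 8. Within the longest run, *Col11a1* and *Col11a2* shared 79.3% of 1014 residues, whereas the 3 type IX pairs shared between 49.3% and 53.4% of 339 residues. The glycines were fixed by how the runs were found, and over the X and Y positions alone the identity was 68.9% for the type XI pair and 23.9% to 30.1% for the type IX pairs.

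**Figure D1:**
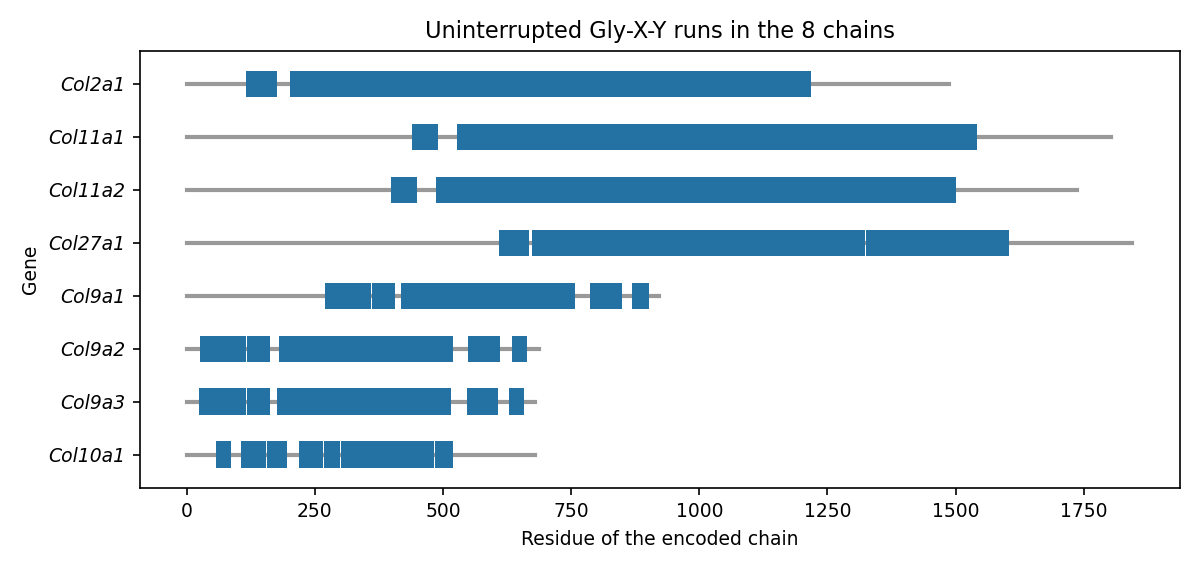
Uninterrupted Gly-X-Y runs of at least 10 triplets (blue blocks) along each encoded chain (grey line), with residue number on the x axis and gene on the y axis. The fibril chains *Col2a1*, *Col11a1* and *Col11a2* have 1 long run and a short one, the 3 type IX chains share a layout of 5 runs, and *Col10a1* is broken into 7.

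The genes lie on 7 chromosomes of GRCm38. On the plus strand were *Col9a1* (chr1:24177610-24252684), *Col9a3* (chr2:180597790-180622189), *Col11a1* (chr3:114030540-114220718), *Col27a1* (chr4:63214004-63334991), *Col9a2* (chr4:121039385-121055322), *Col10a1* (chr10:34389981-34397085) and *Col11a2* (chr17:34039437-34066685). *Col2a1* (chr15:97975602-98004695) is on the minus strand. *Col9a3* shared 234 exon bases with *Tcfl5* and *Col10a1* shared 18 with *Nt5dc1*, both on the opposite strand, and whether counting used strand is not stated in these sources. Those neighbours held at most 282 and 245 counts in any library, against at least 16405 for *Col9a3* and 9339 for *Col10a1*.

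RefSeq promoter sequences (GRCm38.p6) were found for 6 of the 8 genes, in 7 entries, and those of *Col2a1* and *Col9a3* are not shown. The windows end at the transcription start of RefSeq, which can differ from that of GENCODE, and 3 of the 7 entries lie wholly or partly inside the GENCODE gene (*Col27a1*, *Col9a2* and 1 of 2 for *Col9a1*). The 250 bases before the RefSeq start are given for both type XI genes and for *Col10a1*, 5′ to 3′ on the plus strand. They lie at chr3:114030290-114030539 for *Col11a1*, chr17:34038888-34039137 for *Col11a2* and chr10:34389731-34389980 for *Col10a1*, the windows of *Col11a1* and *Col10a1* directly before the GENCODE start and that of *Col11a2* 299 bases before it. Capitals mark TATAAA, the core of a TATA box, and GGGCGG or its reverse complement CCGCCC, a GC box.
Col11a1: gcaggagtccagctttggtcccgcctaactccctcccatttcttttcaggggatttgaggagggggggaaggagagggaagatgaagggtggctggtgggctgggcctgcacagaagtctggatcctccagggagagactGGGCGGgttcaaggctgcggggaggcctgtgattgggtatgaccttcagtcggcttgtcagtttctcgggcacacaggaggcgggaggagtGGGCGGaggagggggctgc
Col11a2: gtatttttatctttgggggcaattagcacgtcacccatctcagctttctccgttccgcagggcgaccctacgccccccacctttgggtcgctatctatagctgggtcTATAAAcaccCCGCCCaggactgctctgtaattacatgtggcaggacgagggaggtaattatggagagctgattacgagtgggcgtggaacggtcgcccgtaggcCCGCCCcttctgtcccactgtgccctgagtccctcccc
Col10a1: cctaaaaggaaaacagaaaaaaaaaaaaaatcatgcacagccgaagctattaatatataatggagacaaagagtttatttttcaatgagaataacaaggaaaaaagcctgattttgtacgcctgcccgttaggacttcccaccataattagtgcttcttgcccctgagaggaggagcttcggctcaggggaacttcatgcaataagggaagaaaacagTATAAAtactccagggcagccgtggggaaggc

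*Col10a1* and *Col11a2* held TATAAA, on either strand, as did 12.4% of the 32851 RefSeq promoters of this length. GGGCGG or CCGCCC was present for *Col11a1*, *Col27a1*, *Col9a2* and *Col11a2*, and in 32.7% of all promoters. ACAAT, part of the motif bound by SOX proteins, and AACCACA, bound by RUNX proteins, were searched on both strands and found in 0 of the 7 entries, against 27.7% and 4.40% of all promoters. These matches describe letters in a window of 250 bases and are not binding sites shown here.

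Library totals ran from 16544800 to 20969914 counts. Chondrocyte markers (9 genes, among them *Acan*, *Matn1* and *Sox9*) were detected in every library, as were markers of skeletal muscle, bone, blood and tendon, so the tissue held more than cartilage cells. *Xist* and 4 Y-linked genes showed libraries of different sex make-up, with 0 Y-linked counts in WT replicates 1 and 2, 6 *Xist* counts in *Hbb*-cKO replicate 2, and both kinds of transcript in the other 3. The targeted genes were lower in *Hbb*-cKO without reaching the threshold, with edgeR log2 fold changes of -1.28 for *Hbb-bs* (adjusted p = 0.218) and -1.32 for *Hbb-bt* (adjusted p = 0.241), and every *Hbb*-cKO library lay below every WT library. By DESeq2 both were called (adjusted p of 0.00168 and 0.00239). The 9 red blood cell markers, which include both genes, summed to 13459 to 36866 CPM (counts scaled to library size) in WT. Their sum was 8809 to 11749 CPM in *Hbb*-cKO, with 6 negative and 3 positive differences. Some genes of this list that were not targeted were lower too. *Hba-a1* was at 16920, 12288 and 5573 CPM in WT and 3968, 5434 and 4671 CPM in *Hbb*-cKO. *Hba-a2* and *Alas2* also had every *Hbb*-cKO library below every WT library. DESeq2 called *Hba-a1*, *Hba-a2* and *Alas2* as well. How much of the fall in *Hbb-bs* and *Hbb-bt* came from chondrocytes was not tested.

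The 8 collagen genes took 4.17%, 4.40% and 3.53% of all counts in WT replicates 1 to 3, and 1.94%, 6.04% and 4.52% in *Hbb*-cKO replicates 1 to 3. The lowest and the highest share were thus both in *Hbb*-cKO. With edgeR's quasi-likelihood test and Benjamini-Hochberg adjustment, 0 of the 8 genes passed an adjusted p of 0.05, a threshold passed by 18 of the 17175 genes tested (0.105%). DESeq2 also called 0 of the 8, where it called 1.16% of all genes. At an unadjusted p below 0.05 edgeR had 0 of the 8, against 10.1% of all genes. Levels below are CPM with TMM-normalised library sizes, as mean ± s.e.m. over n = 3 libraries.

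**Figure D2:**
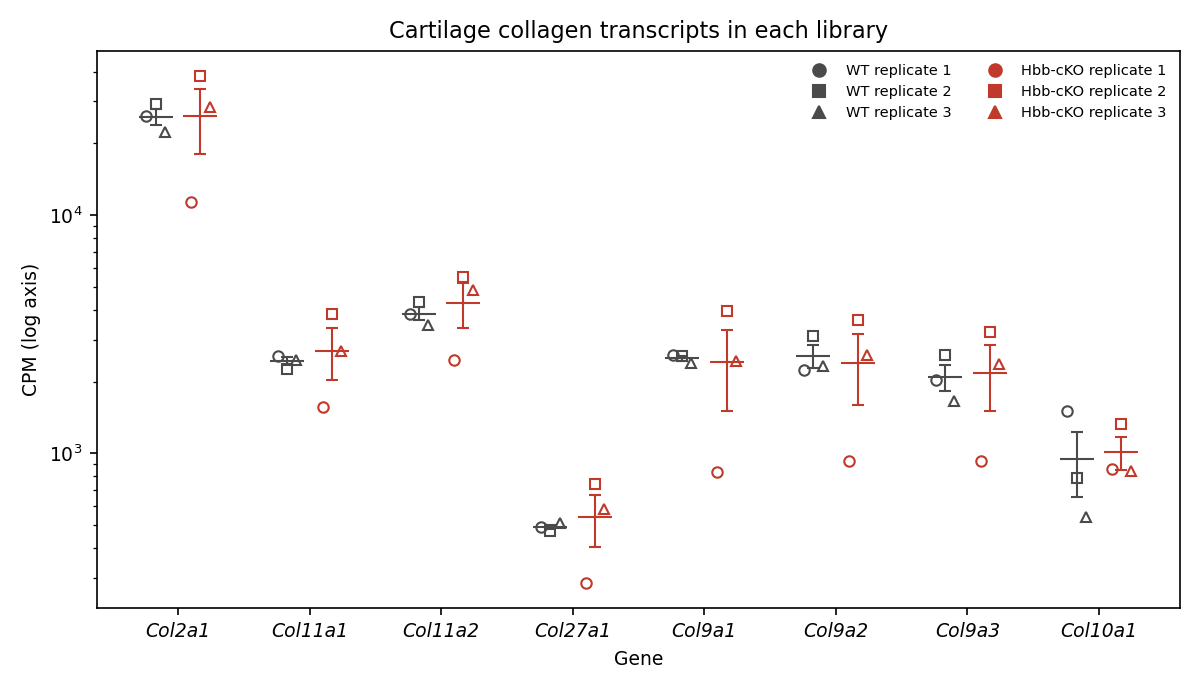
CPM (log axis) of the 8 collagen genes in each of the 3 WT (grey) and 3 *Hbb*-cKO (red) libraries, with the mean (long bar) and s.e.m. (error bar). In 7 genes *Hbb*-cKO replicate 1 (red circle) is the lowest and *Hbb*-cKO replicate 2 (red square) the highest of the 6 libraries, and in *Col10a1* the highest and lowest are WT replicates 1 and 3.

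*Col2a1*, the main fibril chain, stood at 26096, 29308 and 22280 CPM in WT replicates 1 to 3 and at 11307, 38294 and 28358 CPM in *Hbb*-cKO replicates 1 to 3. *Hbb*-cKO replicate 1 lay below all WT libraries, replicate 2 above them and replicate 3 within them, so the groups overlapped. The means were 25895 ± 2031 CPM in WT and 25987 ± 7880 CPM in *Hbb*-cKO. edgeR gave a log2 fold change of 0.01 (s.e. 0.40, 95% interval -0.93 to 0.94, adjusted p = 0.999), an interval that runs from 0.525-fold to 1.92-fold.

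*Col11a1*, which encodes a type XI chain, was at 2571, 2262 and 2474 CPM in WT and at 1565, 3829 and 2680 CPM in *Hbb*-cKO. The WT libraries lay close together, with *Hbb*-cKO replicate 1 below them and the other 2 above. The log2 fold change was 0.14 (s.e. 0.29, 95% interval -0.54 to 0.83), with an edgeR adjusted p of 0.918. Its partner *Col11a2* was at 3824, 4305 and 3445 CPM in WT and at 2462, 5492 and 4828 CPM in *Hbb*-cKO. The same arrangement held, with 1 *Hbb*-cKO library below and 2 above all WT libraries, and a log2 fold change of 0.14 (s.e. 0.29, edgeR adjusted p = 0.917).

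*Col27a1*, the type XXVII chain, was at 493, 471 and 508 CPM in WT and at 287, 743 and 583 CPM in *Hbb*-cKO. Its WT values spanned 1.08-fold, the narrowest of the 8 genes, and its *Hbb*-cKO values 2.59-fold. The log2 fold change was 0.13 (s.e. 0.31, 95% interval -0.59 to 0.86, edgeR adjusted p = 0.930).

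The type IX genes encode the chains on the fibril surface. *Col9a1* was at 2591, 2552 and 2387 CPM in WT and at 831, 3953 and 2429 CPM in *Hbb*-cKO, where the highest library was 4.76-fold over the lowest, the widest range of the 8. *Hbb*-cKO replicate 3 fell within the WT values, replicate 1 below and replicate 2 above them. The log2 fold change of *Col9a1* was -0.06 (s.e. 0.49, 95% interval -1.24 to 1.12, edgeR adjusted p = 0.984).

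*Col9a2* was at 2246, 3115 and 2325 CPM in WT and at 930, 3634 and 2598 CPM in *Hbb*-cKO, with a log2 fold change of -0.10 (s.e. 0.45, edgeR adjusted p = 0.967). *Col9a3* was at 2025, 2582 and 1663 CPM in WT and at 932, 3216 and 2365 CPM in *Hbb*-cKO, with a log2 fold change of 0.06 (s.e. 0.42, edgeR adjusted p = 0.983). In both genes *Hbb*-cKO replicate 3 lay within the WT range, and the other 2 lay on either side of it.

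*Col10a1*, the hypertrophic collagen, was at 1502, 784 and 539 CPM in WT and at 858, 1325 and 839 CPM in *Hbb*-cKO. All 3 *Hbb*-cKO libraries lay within the WT range, which spanned 2.79-fold against 1.58-fold in *Hbb*-cKO. The means were 942 ± 289 and 1008 ± 159 CPM, with a log2 fold change of 0.10 (s.e. 0.39, 95% interval -0.81 to 1.01, edgeR adjusted p = 0.962). *Col10a1* was thus the only gene of the 8 in which WT varied more than *Hbb*-cKO.

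**Figure D3:**
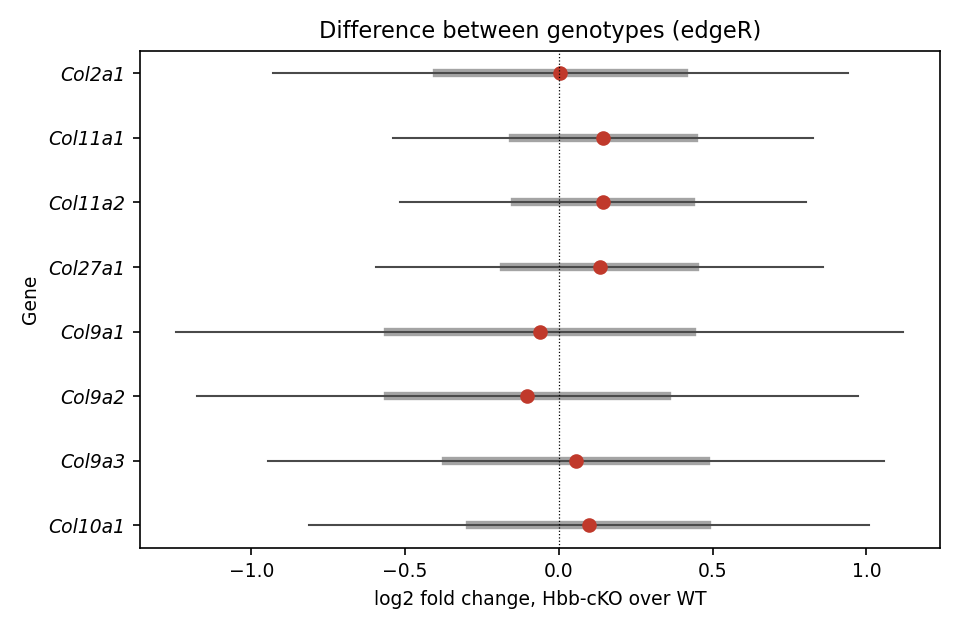
edgeR log2 fold change of *Hbb*-cKO over WT for each collagen gene (points), with ± 1 s.e. (thick grey bars) and the 95% interval (thin lines). Every interval spans 0 (dotted line), and the widest, of *Col9a1*, runs from -1.24 to 1.12.

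Over the 8 genes the median log2 fold change was 0.08, with 6 positive and 2 negative values. All 17175 genes tested had a median of -0.01, with 8165 positive values. The sign of the median of the 8 genes rested on single libraries: it was 0.40 without *Hbb*-cKO replicate 1 and -0.27 without *Hbb*-cKO replicate 2. The median standard deviation of log2 CPM in the 8 genes was 0.18 in WT and 0.82 in *Hbb*-cKO. For 5763 more abundant genes (a mean log2 CPM of 5 or more) the corresponding medians were 0.19 in WT and 0.10 in *Hbb*-cKO. The difference in spread between the groups was not tested.

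Whether the collagens varied together was described by the correlation of log2 CPM over the 6 libraries. Among the 7 genes other than *Col10a1*, Pearson's r ran from 0.867 to 0.991 over 21 pairs and Spearman's rho from 0.543 to 1. Without *Hbb*-cKO replicates 1 and 2 the same r ran from -0.667 to 0.99 over 4 libraries, so the shared pattern rested on those 2 libraries. *Col10a1* correlated with the other 7 at r of 0.172 to 0.403. These values share libraries and their depth, and no test was made of them.

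Summed chondrocyte markers moved with the collagens. Singly, *Snorc* and *Ucma* were highest in WT replicate 2, and *Comp* was lowest in WT replicate 3. The sum was 7299, 8003 and 5771 CPM in WT and 3358, 10731 and 7153 CPM in *Hbb*-cKO, lowest in *Hbb*-cKO replicate 1 and highest in replicate 2. Taken relative to this sum, a scaling chosen after seeing the data, *Col2a1* spanned 1.18-fold over the 6 libraries in place of 3.39-fold, whereas *Col10a1* still spanned 2.74-fold. On this scale all 8 genes had an adjusted p of 0.8 in exact permutation tests (two-sided, n = 3 per group, smallest possible unadjusted p of 0.1). In bulk tissue, fewer chondrocytes and less collagen RNA per chondrocyte cannot be told apart.

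Other cell types differed in other ways across the same libraries. The 8 osteoblast markers summed to 639, 841 and 1057 CPM in WT and 1203, 459 and 793 CPM in *Hbb*-cKO. This sum was highest in the *Hbb*-cKO library where the fibril collagens were lowest, and lowest where they were highest. *Ibsp* made up most of it, with 808 CPM in *Hbb*-cKO replicate 1 and 263 CPM in replicate 2. *Ibsp* is also in the list of hypertrophic chondrocyte genes used below, so this sum is not of osteoblasts alone. Singly, *Ibsp*, *Dmp1* and *Phex* had this arrangement. *Sp7*, *Ifitm5* and *Sost* were not lowest in *Hbb*-cKO replicate 2, and *Bglap* and *Bglap2* were highest in WT replicate 3. The 10 skeletal muscle markers summed to 28964 to 47891 CPM in WT and 24258 to 33023 CPM in *Hbb*-cKO. The 8 neutrophil markers all had positive differences, as had 8165 of the 17175 genes tested. Their sums were 17.5 to 37.4 CPM in WT and 124, 26.8 and 105 CPM in *Hbb*-cKO replicates 1 to 3. The part of these cell types and of sex make-up in the collagen values was not tested.

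**Figure D4:**
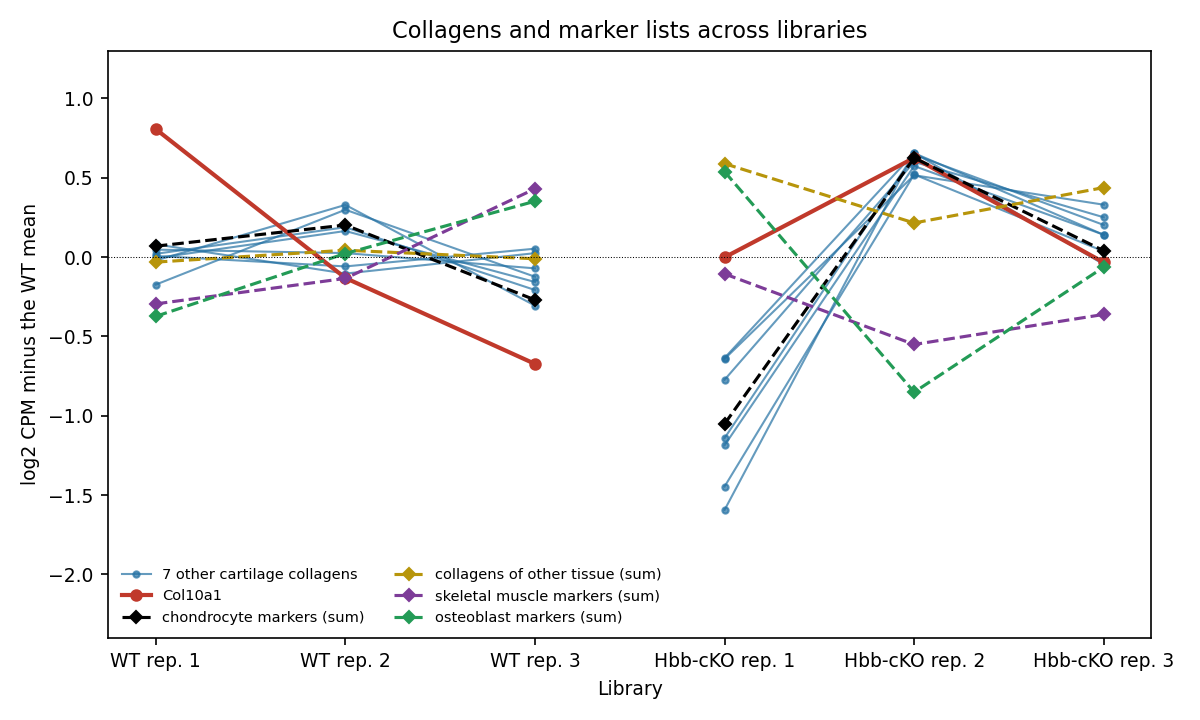
log2 CPM minus the WT mean in each library (x axis) for *Col10a1* (red), the 7 other collagen genes (blue) and the summed markers of chondrocytes (black), osteoblasts (green) and skeletal muscle (purple) and collagens of other tissue (yellow). The blue lines follow the black one, with the lowest point in *Hbb*-cKO replicate 1 and the highest in replicate 2, and *Col10a1* does not fall in *Hbb*-cKO replicate 1.

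Ratios between transcripts compare genes inside the same library. In all, 10 ratios were compared between the genotypes by exact permutation tests (two-sided, n = 3 per group), in which a p of 0.1 is the smallest possible. The groups overlapped in all 10, the lowest p was 0.2 and the lowest adjusted p was 0.714.

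Within type IX, the count ratio of *Col9a1* to *Col9a2* was 1.15, 0.819 and 1.03 in WT and 0.894, 1.09 and 0.935 in *Hbb*-cKO. The groups lay across each other, with a mean log2 difference of -0.03 (exact permutation p = 0.9, n = 3). The ratio of *Col9a3* to *Col9a2* was 0.901, 0.829 and 0.715 in WT and 1.00, 0.885 and 0.911 in *Hbb*-cKO. Here 2 of the 3 *Hbb*-cKO values lay above all WT values, with a mean log2 difference of 0.20 (exact permutation p = 0.2, adjusted p = 0.714, n = 3).

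Within type XI, *Col11a1* to *Col11a2* stood at 0.672, 0.526 and 0.718 in WT and 0.636, 0.697 and 0.555 in *Hbb*-cKO, a mean log2 difference of -0.01 (exact permutation p = 0.9, n = 3). *Col2a1* to *Col11a1*, the main chain over its partner in the fibril, was 10.15, 12.96 and 9.007 in WT and 7.226, 10.002 and 10.58 in *Hbb*-cKO, lowest in *Hbb*-cKO replicate 1. The summed type IX counts per *Col2a1* count kept the narrowest range of the 10 ratios, from 0.238 to 0.286, or 1.2-fold over all 6 libraries. *Col2a1* per count of *Acan*, which encodes the main proteoglycan of cartilage, was 12.9, 14.3 and 13.7 in WT and 10.9, 13.8 and 13.2 in *Hbb*-cKO, a range of 1.31-fold.

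*Col10a1* per count of *Col2a1*, hypertrophic over fibril collagen, was 0.0576, 0.0268 and 0.0242 in WT and 0.0759, 0.0346 and 0.0296 in *Hbb*-cKO. The first library of each genotype was high and the others were low, with a range of 3.14-fold over the 6 libraries (mean log2 difference 0.35, exact permutation p = 0.5, n = 3). Without *Hbb*-cKO replicate 1 the difference turned to -0.06. The ratio of *Col27a1* to *Col2a1* spanned 1.58-fold with no separation of the genotypes.

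The widest ratio set *Col2a1* against *Col1a1*, the main collagen chain of bone, tendon and skin. It was 1.22, 1.24 and 1.08 in WT and 0.301, 1.56 and 0.860 in *Hbb*-cKO, a range of 5.20-fold in which *Hbb*-cKO replicate 1 stood apart. *Col5a2*, whose chain can assemble with that of *Col11a1*, was at 0.565, 0.646 and 0.615 counts per *Col11a1* count in WT and at 1.23, 0.469 and 0.680 in *Hbb*-cKO, again with *Hbb*-cKO replicate 1 far from the rest.

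**Figure D5:**
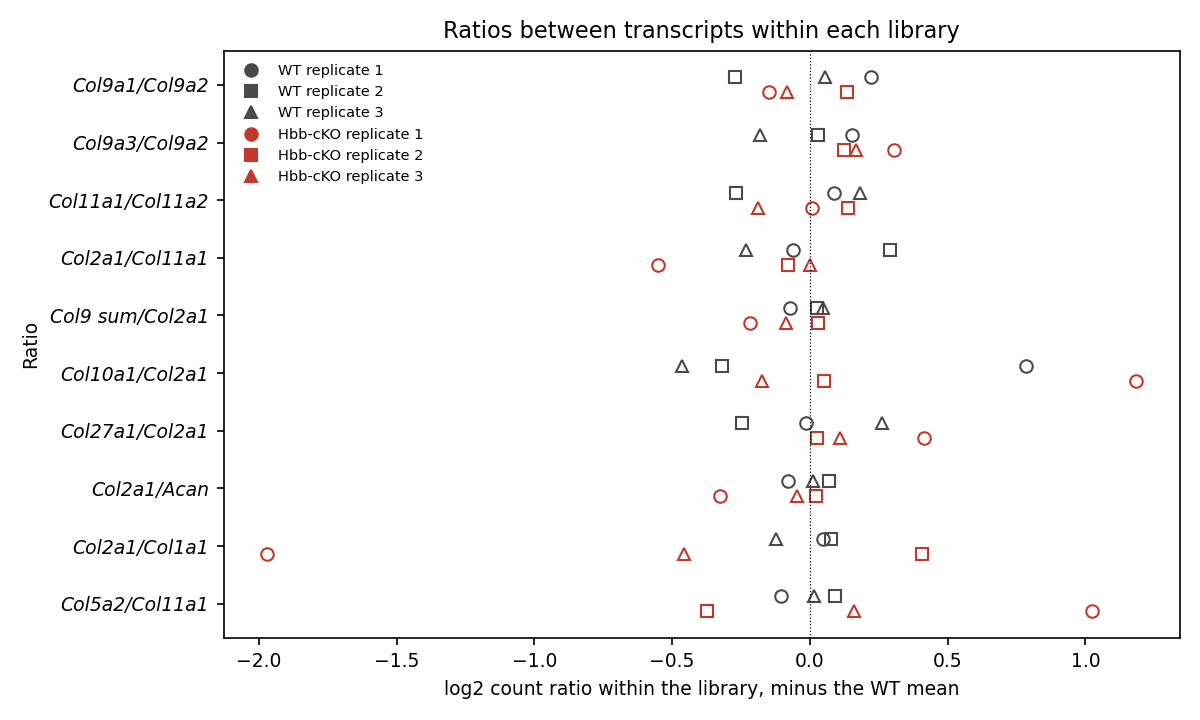
log2 count ratio of each pair of transcripts (y axis) in each library, minus the WT mean (x axis), for WT (grey) and *Hbb*-cKO (red) replicates 1 to 3 (circles, squares and triangles). The type IX, type XI and *Col2a1*/*Acan* ratios vary least, the summed type IX ratio by 1.2-fold, and *Hbb*-cKO replicate 1 stands off in *Col2a1*/*Col1a1* and *Col5a2*/*Col11a1*, and with WT replicate 1 in *Col10a1*/*Col2a1*.

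Levels of different genes were compared per length, in TPM computed from the counts and merged exon lengths. *Col2a1* led in WT at 6115 ± 226 TPM, followed by *Col9a2* at 1804 ± 125, *Col11a2* at 1226 ± 25.6, *Col9a3* at 1179 ± 98.6 and *Col9a1* at 1087 ± 34.5 TPM. *Col10a1* was at 659 ± 205, *Col11a1* at 421 ± 31.0 and *Col27a1* at 82.9 ± 5.43 TPM. *Col2a1* lay above *Col9a2*, and *Col11a1* above *Col27a1*, in 6 of 6 libraries (exact permutation by sign flips, p = 0.031, the smallest possible with n = 6, adjusted p = 0.109 over 7 neighbouring pairs). Each of the other 5 neighbouring pairs changed order in at least 1 library, and WT values overlapped in 4 of them. The middle of the order also depended on the length used, as did the size of the lead of *Col2a1*. Over the 6 libraries *Col2a1* was on average 3.57-fold over *Col9a2* per merged exons, 6.11-fold per longest transcript and 4.93-fold per coding length. Per longest transcript or per coding length, *Col9a3* came before *Col11a2*. *Col11a1* came before *Col10a1* per longest transcript. Per coding length their WT means lay close, at 522 TPM for *Col11a1* and 532 TPM for *Col10a1*. *Col11a1* had 12.744 kb of merged exons and 7.667 kb in its longest transcript, whereas both lengths of *Col10a1* were 3.13 kb.

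Genes that make, bind or remodel collagen were examined by lists. Among 15 regulators of chondrocyte collagen genes, edgeR called 0, with a median log2 fold change of -0.06, and DESeq2 called 0. *Sox9*, *Sox5* and *Sox6*, which drive the fibril collagens, had log2 fold changes of 0.09, -0.07 and -0.01. *Sox9* was at 104, 98.9 and 80.1 CPM in WT and 45.7, 153 and 102 CPM in *Hbb*-cKO, the arrangement seen for *Col2a1*. *Sox5* had it too, at 13.7, 28.2 and 21.9 CPM in *Hbb*-cKO. *Sox6* did not, at 45.9, 39.0 and 53.9 CPM in WT and 40.3, 62.1 and 35.2 CPM in *Hbb*-cKO. *Runx2*, an activator of *Col10a1*, was at 35.3, 10.9 and 33.9 CPM in WT and 38.3, 38.8 and 39.2 CPM in *Hbb*-cKO, where WT replicate 2 was low (log2 fold change 0.54, edgeR adjusted p = 0.713). *Runx3* had the smallest p of the list, with 0.44 (edgeR adjusted p = 0.353).

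Of 13 partners of the collagen fibril in cartilage, edgeR called 0 (median log2 fold change -0.06). *Chad* encodes chondroadherin, a leucine-rich protein that binds type II collagen. It was at 249, 271 and 195 CPM in WT and 93.4, 151 and 131 CPM in *Hbb*-cKO, with every *Hbb*-cKO library below every WT library. Its log2 fold change was -0.93 (s.e. 0.20), with an adjusted p of 0.182 by edgeR and 0.00644 by DESeq2, the single call of DESeq2 in this list. Over all genes DESeq2 called 1.16%. *Acan*, *Comp* and *Snorc* had values of 0.06, 0.30 and -0.39.

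In 25 genes of collagen hydroxylation, folding, secretion and crosslinking, edgeR and DESeq2 both called 0, with 17 positive differences and a median of 0.12 on the log2 scale. Of all 17175 genes tested, 8165 had positive differences. *P3h3*, a prolyl hydroxylase family member, had a log2 fold change of 0.36 (edgeR adjusted p = 0.456). *Serpinh1*, the collagen chaperone, had 0.28 (edgeR adjusted p = 0.550). In 12 genes of procollagen processing and collagen breakdown both tools called 0, and *Mmp14*, a membrane collagenase, had 0.34 (edgeR adjusted p = 0.434). *Mmp13*, the main collagenase of hypertrophic cartilage, had 0.23.

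Of 8 collagen receptors edgeR called 0 and DESeq2, which called 1.16% of all genes, called 1, *Itgb1*. It encodes the β-chain shared by the collagen-binding integrins. *Itgb1* was at 451, 407 and 477 CPM in WT and 618, 647 and 636 CPM in *Hbb*-cKO, without overlap, and its log2 fold change was 0.51 (s.e. 0.12, adjusted p of 0.228 by edgeR and 0.00611 by DESeq2). Among 10 other genes of hypertrophic chondrocytes both tools called 0. Of their differences 7 were positive, against 8165 of the 17175 genes tested, with a median of 0.29 on the log2 scale. *Pth1r*, the receptor of parathyroid hormone-related protein, was at 192, 231 and 162 CPM in WT and 234, 323 and 253 CPM in *Hbb*-cKO (log2 fold change 0.47, edgeR adjusted p = 0.425). The 10 genes summed to 1646, 1963 and 2391 CPM in WT and 2451, 1614 and 1858 CPM in *Hbb*-cKO. This sum was lowest in *Hbb*-cKO replicate 2 and WT replicate 1, where *Col10a1* was highest. Singly, *Pth1r* and *Panx3* were highest in *Hbb*-cKO replicate 2.

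Collagens of other connective tissue were described for contrast. All 12 had positive differences, as had 8165 of the 17175 genes tested, with a median of 0.30 on the log2 scale. At an unadjusted edgeR p below 0.05 were 6 of the 12, against 10.1% of all genes, but edgeR called 0. DESeq2 called *Col14a1* and *Col3a1*, where it called 1.16% of all genes. *Col14a1*, a fibril-surface collagen of tendon and skin, was at 639, 607 and 585 CPM in WT and 945, 955 and 870 CPM in *Hbb*-cKO, with a log2 fold change of 0.60 (adjusted p of 0.169 by edgeR and 0.000241 by DESeq2). *Col1a1* was at 21442, 23546 and 20591 CPM in WT and 37581, 24495 and 32978 CPM in *Hbb*-cKO (log2 fold change 0.54, edgeR adjusted p = 0.434). The summed level of the 12 was 61837 to 65129 CPM in WT and 73366 to 95060 CPM in *Hbb*-cKO, without overlap and highest in *Hbb*-cKO replicate 1.

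The genes most like 2 of the collagens were found over 5755 genes of mean log2 CPM 5 or more, as a description over 6 libraries. The pattern of *Col2a1* was followed most closely by *Cnmd*, which encodes chondromodulin (r = 0.996), *Trpv4*, a calcium channel of chondrocytes (0.995), *Acan* (0.991), *Gm21983* (0.989) and *Matn3*, a matrilin of cartilage (0.987). *Cnmd*, *Acan* and *Matn3* belong to the list of chondrocyte markers. *Cnmd* was at 704, 793 and 521 CPM in WT and 249, 1135 and 721 CPM in *Hbb*-cKO. For *Col10a1* the closest were *Epm2aip1* (0.999), *Reep3* (0.973), *Ftl1-ps1* (0.957), *Cnot9* (0.947) and *Chmp3* (0.941), none of which is among the hypertrophic genes listed here. *Ftl1-ps1* is a copy of a ferritin gene and can share reads with it. *Cnot9* ran only from 40.7 CPM in WT replicate 3 to 45.9 CPM in WT replicate 1. All these matches were picked as the highest of 5755 correlations over 6 libraries and were not tested.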

How the data were processed

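Poly(A) RNA of knee joint cartilage of P6 mice was analysed from 3 WT and 3 *Hbb*-cKO libraries, grouped by the labelled genotype. The authors deposited whole-number read counts per gene, not normalized. Tools listed in the submitters' processing notes are edgeR, StringTie, HISAT2 2.1.0, fastp 0.19.5 and CASAVA 1.8. What settings, genome build and strand rule they had was not given in the sources used here. Positions in the table matched GENCODE M21 (GRCm38) for 54870 of 55227 identifiers.

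Totals of 16544800 to 20969914 counts gave at least 5047 counts per collagen gene. The error is therefore set by the spread between libraries. Every pair of libraries differed by more than sampling noise (chi-square of 22.2 to 61.02 per gene over 15 pairs). Genes were filtered by edgeR (minimum count 10, minimum total 15), scaled by TMM and tested with the quasi-likelihood fit of edgeR 4.0.16 in R 4.3.3, with Benjamini-Hochberg adjustment over 17175 genes and a threshold of 0.05. A prior count of 2 entered log2 CPM. Ratios and relative levels were compared by exact permutation tests in SciPy 1.17.1. The fits were tested on simulated data. Alternatives were RLE factors, DESeq2 1.42.0, TMM computed without the collagens, globins or muscle markers, 2 other filters, a replicate block, other gene lengths and leaving out each library. Levels relative to summed chondrocyte markers or summed collagens were added after seeing the data.

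The collagens and all lists were chosen with earlier results of these data known. The rule for named genes took the 8 collagens, 10 fixed genes, the 4 lowest p values of each list, and the 5 genes most correlated with *Col2a1* and with *Col10a1*. From these the text gives those it describes. Amino acid features were computed from the longest coding transcripts.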

Additional observations from a re-analysis of the deposited data

How the results depend on the processing

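In 128 alternative values, no collagen gene was called, with a lowest adjusted p of 0.576, and 20 changed sign. Those relative to the chondrocyte markers or summed collagens came from exact permutation tests, which cannot pass the threshold with 3 against 3 libraries. For *Col2a1* the log2 fold change turned to -0.0012 with the stricter filter, -0.03 relative to the chondrocyte markers and -0.0352 relative to the summed collagens, the last 2 chosen after seeing the data. Replicate numbers did not pair the libraries (correlations of same-numbered deviations -0.026, -0.108 and -0.029). With a replicate block *Col2a1* had -0.15 and *Col9a3* -0.0874. Leaving out 1 library gave -0.38 to 0.37 for *Col2a1*, -0.20 to 0.42 for *Col11a1*, -0.0810 to 0.43 for *Col11a2*, -0.17 to 0.44 for *Col27a1*, -0.62 to 0.35 for *Col9a1*, -0.54 to 0.29 for *Col9a2* and -0.34 to 0.42 for *Col9a3*, lowest without *Hbb*-cKO replicate 2 and highest without *Hbb*-cKO replicate 1 in these 7. *Col10a1* ran from -0.18 without WT replicate 3 to 0.61 without WT replicate 1. Log2 ratio differences ran from -0.17 to 0.0790 for *Col9a1*/*Col9a2*, -0.15 to 0.0760 for *Col11a1*/*Col11a2*, -0.0613 to 0.75 for *Col10a1*/*Col2a1* and -0.11 to 0.59 for *Col5a2*/*Col11a1*. The other 6 ratios kept their sign, though *Col2a1*/*Col1a1* ran from -1.21 to -0.02. Ratios cannot pass the threshold with 3 against 3 libraries. Per longest transcript, *Col11a2* over *Col9a3* had -0.0049 and *Col10a1* over *Col11a1* -0.14. Per coding length they had -0.37 and -0.0215. DESeq2 called 1 fibril partner, 1 receptor and 2 other collagens where edgeR called 0. Over all genes, edgeR called 18, DESeq2 236, no filter on low counts 60, the replicate block 4, and leaving out 1 library 1 (WT replicate 1) to 39 (WT replicate 3), with 6 without *Hbb*-cKO replicate 2 and 2 without *Hbb*-cKO replicate 3. The causes were not tested.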
